A study of Rattus norvegicus with 18 samples.

Results

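The genes described here are the club cell secretoglobins and the airway mucins, with the genes that mark mucus-secreting cells. They are 10 named genes, of which 9 were among the 22081 genes of the deposited tables: Scgb1a1, Scgb3a1 and Scgb3a2, the mucins Muc1, Muc4 and Muc5b, and the mucous cell genes Spdef, Foxa3 and Agr2. Muc5ac was not analysed here. The genes were chosen by name, from what they are known to do in the airway and with earlier results of these data known. RNA-seq was performed on the lungs of 18 rats, as 3 rats in each of 6 groups, and total counts ranged from 13297643 to 21130757 reads per rat. The rats were male F344/DuCrlCrlj rats. MWCNT rats received MWNT-7, a multiwalled carbon nanotube, by intratracheal instillation at 0.5 mg/kg body weight once every 4 weeks from 9 weeks of age. Control rats received the vehicle, saline with Tween 80, by the same route. Rats of both treatments were examined at 3 times, called Year 0.5, Year 1 and also Year 2, and RNA was taken from small pieces of the accessory lobe after tissue with visible tumor nodules had been left out. Each value is therefore an average over airway, alveoli, vessels and infiltrating cells of 1 piece, and fewer cells of a type cannot be told apart from less RNA per cell.

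Club cells are the non-ciliated secretory cells of the small airways. They release secretoglobins, small proteins of the airway lining fluid, and carry the cytochromes P450 that metabolise inhaled chemicals. Mucous (goblet) cells secrete the gel-forming mucins, under the transcription factors SPDEF and FOXA3 and with the help of AGR2, which folds mucins in the endoplasmic reticulum. MUC1 and MUC4 are not secreted gels but mucins anchored in the cell membrane. Airway mucus production commonly increases when the airway is irritated for a long time.

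The TPM, a level that is corrected for gene length and library size, allows levels of different genes to be compared. In the 9 control rats, Scgb1a1 was highest, with a median of 27016 TPM, followed by Scgb3a2 with 338 TPM, Muc1 with 244 TPM, Scgb3a1 with 58.6 TPM, Agr2 with 8.18 TPM, Spdef with 5.80 TPM, Muc5b with 0.848 TPM, Foxa3 with 0.422 TPM and Muc4 with 0.120 TPM. In this order 2 pairs of neighbours changed places in the MWCNT rats. Muc1 was above Scgb3a2 in 1 of 9 control rats and in 9 of 9 MWCNT rats. Spdef was above Agr2 in 0 of 9 control rats and in 9 of 9 MWCNT rats. Scgb3a2 was above Scgb3a1 in 9 of 9 rats of either treatment. Agr2 was above Muc5b in 9 of 9 control and 6 of 9 MWCNT rats, Muc5b was above Foxa3 in 9 and 7 of them, and Foxa3 was above Muc4 in 8 and 9. Among neighbours in the control order, the ranges over the 9 control rats were apart for Scgb1a1 and Scgb3a2 and for Scgb3a1 and Agr2, and overlapped for all other pairs. These orders are descriptions and were not tested.

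**Figure D1:**
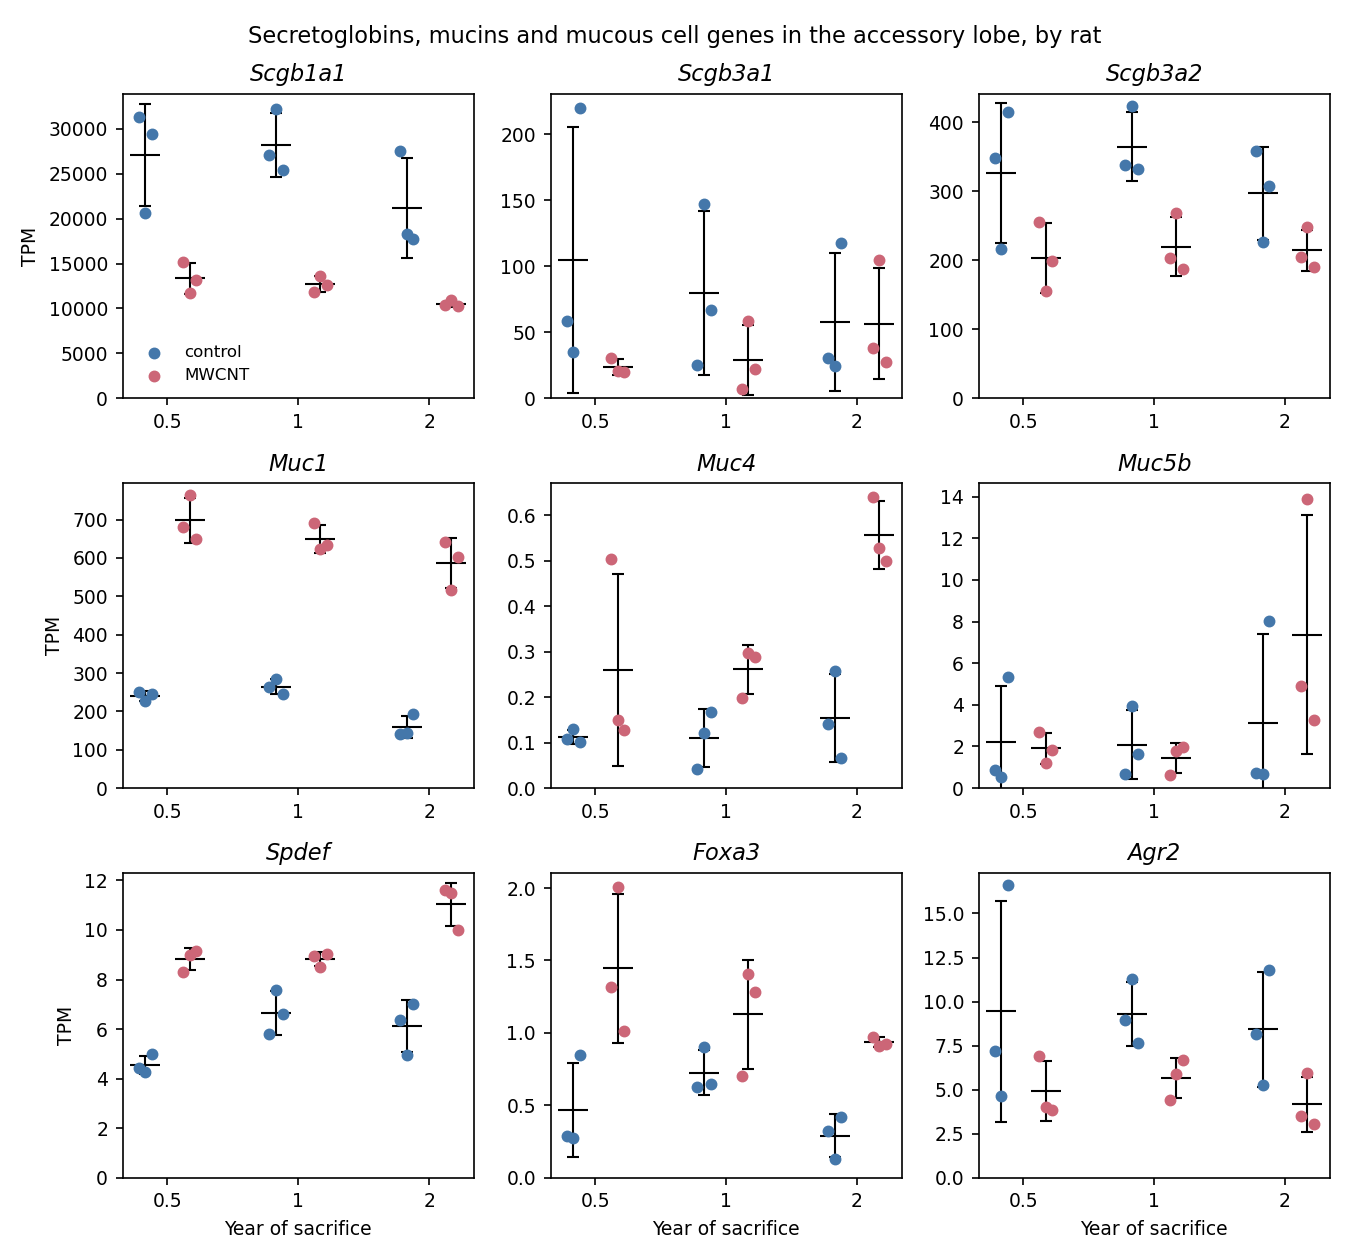
TPM of each gene (vertical axes, from 0) in each rat by year (horizontal axes), with control rats in blue and MWCNT rats in red. Black lines give the mean and SD of 3 rats, cut off at 0 for Muc5b. Muc1 lay between 516 and 763 TPM in MWCNT rats and between 142 and 285 TPM in control rats, and Scgb1a1 was lower in every MWCNT rat than in any control rat.

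The main comparison was that of MWCNT rats with control rats of the same year, tested with edgeR's quasi-likelihood test on counts and Benjamini-Hochberg adjustment (FDR) over all genes tested. A gene counted as differentially expressed (DEG) when it passed both limits, 0.05 for the FDR and 1 for the size of its log2 fold change. At Year 0.5, 8 of the 9 genes passed the filter on low counts, and 3 were higher and 1 was lower as DEGs, where 6.07% of all 14315 genes tested were higher and 3.03% lower. At Year 1, 9 genes were tested, with 2 higher and 0 lower DEGs against 6.13% and 4.09% of 14345 genes. At Year 2, 4 were higher and 0 lower against 8.17% and 8.22% of 14361 genes. With an FDR below 0.05 and no limit on the fold, 3 genes were higher and 2 lower at Year 0.5, against a background of 20.2% and 18.6%. The same criterion gave 3 higher and 2 lower at Year 1, against 21.6% and 19.6%, and 4 higher and 1 lower at Year 2, against 25.2% and 24%. The 3 MWCNT rats all lay above or all below the 3 control rats in TPM for 5 of 8 genes at Year 0.5, where this held for 57.7% of all genes tested, for 6 of 9 at Year 1 (61.7%) and for 5 of 9 at Year 2 (63.8%). These counts are a description, because Muc4 at Years 1 and 2 and Foxa3 at Years 0.5 and 2 had 10 or more reads in at most 1 control rat and passed the filter through their MWCNT rats. With limma on log2(TPM + 1), a scale that understates the change of low genes, the folds of Spdef and Foxa3 at Years 0.5 and 2 and of Muc4 at Year 2 were under the limit of 1, and the FDR of Scgb3a1 at Year 0.5 was 0.0682. With libraries scaled by total counts alone, the share of all DEGs that were higher was 54.2% in place of 66.7% at Year 0.5, 45.2% in place of 60% at Year 1 and 37.5% in place of 49.9% at Year 2, and the median of all genes moved by -0.10, -0.13 and -0.17 on the log2 scale.

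**Figure D2:**
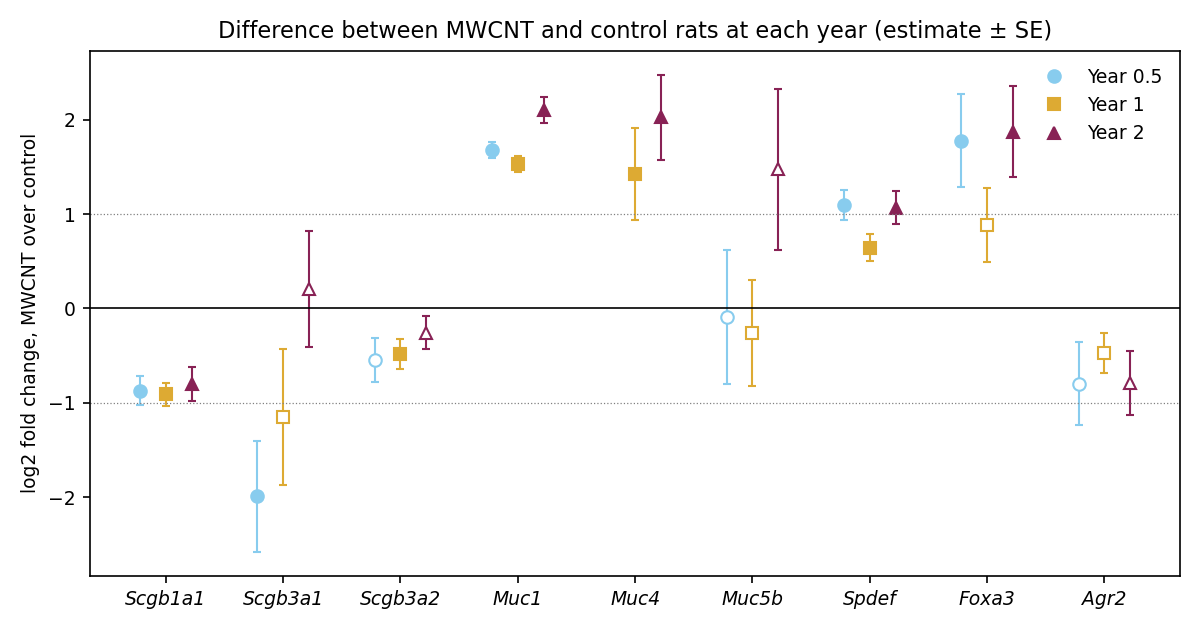
Log2 fold change of MWCNT over control rats (vertical axis) for each gene at each year, with the SE as bars. Filled symbols have an FDR below 0.05 by edgeR's quasi-likelihood test, and dotted lines mark a log2 fold change of 1 in either direction. Muc1 was above 1.5 at all 3 years, Scgb1a1 was between -0.91 and -0.80, and the bars of Muc5b and Scgb3a1 were the widest.

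Among the secretoglobins, Scgb1a1, which encodes the main secreted protein of club cells, was lower in MWCNT rats at every year. Its gene (ENSRNOG00000020196) is at chr1:225279676-225283326 on the minus strand in the Rnor_6.0 coordinates of the tables. At Year 0.5 it was at 31244, 20594 and 29412 TPM in control rats and at 15208, 11773 and 13171 TPM in MWCNT rats. At Year 1 the control rats had 27016, 32241 and 25438 TPM and the MWCNT rats 11830, 13651 and 12594 TPM. At Year 2 the values were 27530, 18232 and 17673 TPM in control rats and 10335, 10938 and 10255 TPM in MWCNT rats. All 9 MWCNT rats were below all 9 control rats. Scgb1a1 made up between 1.77% and 3.22% of all TPM in control rats and between 1.03% and 1.52% in MWCNT rats. The log2 fold change was -0.87 (SE 0.15) at Year 0.5, -0.91 (SE 0.12) at Year 1 and -0.80 (SE 0.18) at Year 2, with edgeR FDRs of 0.00227, 0.000559 and 0.00479. The size of the change was under the limit of 1 at each year, so that Scgb1a1 was no DEG. It passed that limit at Year 0.5 without control rat 2 (-1.03), and at Year 1 without MWCNT rat 2 (-1.02) or with libraries scaled by total counts (-1.05). That control rat was the lowest of its group and that MWCNT rat the highest, so leaving either out widens the fall by construction. With limma on log2(TPM + 1) Scgb1a1 passed at both of these years (-1.0015 with an FDR of 0.00621 and -1.15 with an FDR of 0.000682). In a model of all 18 rats, the effect did not differ detectably between years, with a difference of 0.08 (SE 0.25) on the log2 scale between Year 2 and Year 0.5 (FDR 0.931).

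The 250 bases before the start of Scgb1a1 are shown because the promoter of this gene is a textbook example of one that club cells read. They are taken from RefSeq (GRCr8, chr1:215409687-215409936, minus strand), 5′ to 3′. Promoters of 8 of the 10 genes were matched by symbol.
Scgb1a1: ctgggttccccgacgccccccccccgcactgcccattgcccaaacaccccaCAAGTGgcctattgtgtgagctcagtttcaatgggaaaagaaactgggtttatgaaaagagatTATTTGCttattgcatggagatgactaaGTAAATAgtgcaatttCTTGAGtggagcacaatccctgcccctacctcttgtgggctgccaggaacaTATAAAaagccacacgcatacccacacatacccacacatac
Capitals mark matches to letters searched in each window. These were the TATA box (TATAAA), read on the strand of the gene only, and 5 motifs read on both strands. FOXA was spelled TATTTAC in the first form, TATTTGC in the second form, TGTTTAC in the third form and TGTTTGC in the last form. NKX2-1 was spelled CAAGTG in the first form and CTCAAG in the last form. The GC box was spelled GGGCGG, while STAT was spelled TTCNNNGAA and AP-1 was spelled TGANTCA, where N is any base. Matches could share bases, as the pair of NKX2-1 spellings did before Scgb3a1. The window of Scgb1a1 held 1 TATA box, 2 FOXA and 2 NKX2-1 matches. Over the windows of 27457 genes, 8.38% held the TATA box, 12.1% a FOXA match, 22.8% an NKX2-1 match, 32.4% a GC box, 7.52% a STAT match and 6.36% an AP-1 match. An NKX2-1 match was in 5 of the 8 windows of the genes described here, those of Scgb1a1, Scgb3a1, Scgb3a2, Muc4 and Spdef. A match is a run of letters and not a known site of binding.

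Scgb3a2 (ENSRNOG00000026912, chr18:38292701-38295831, plus strand) encodes a further secretoglobin of club cells. It was at 348, 216 and 415 TPM in control rats and 256, 155 and 199 TPM in MWCNT rats at Year 0.5, and at 338, 423 and 333 TPM against 204, 268 and 187 TPM at Year 1. At Year 2 the control rats had 358, 226 and 307 TPM and the MWCNT rats 205, 248 and 191 TPM. The groups overlapped at Years 0.5 and 2 and not at Year 1. Its log2 fold change was -0.54 with an edgeR FDR of 0.095 at Year 0.5, -0.48 with an FDR of 0.0384 at Year 1 and -0.26 with an FDR of 0.245 at Year 2. Averaged over the 3 years in the model of all 18 rats, Scgb3a2 was lower in MWCNT rats, with a log2 fold change of -0.43 (SE 0.13, FDR 0.00971).

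Scgb3a1 (ENSRNOG00000002718, chr10:35133252-35135466, plus strand), a secretoglobin of the larger airways and their glands, varied most among the secretoglobins. In control rats it was at 58.6, 35.3 and 220 TPM at Year 0.5, 25.1, 147 and 67.0 TPM at Year 1, and 30.8, 24.5 and 118 TPM at Year 2. The MWCNT rats had 30.5, 21.0 and 19.9 TPM at Year 0.5, 7.15, 58.8 and 22 TPM at Year 1, and 37.8, 105 and 27.3 TPM at Year 2. A single rat stood high in most groups, and the highest control rat had 8.996 times the level of the lowest, where that ratio was 1.82 for Scgb1a1. For Scgb3a1 the log2 fold change was -1.99 (SE 0.59, edgeR FDR 0.0259) at Year 0.5, when it was a DEG. Without control rat 3 of that year it was -0.85 (FDR 0.0249) and no DEG. Without MWCNT rat 2 it was -1.90 (FDR 0.0838), and without MWCNT rat 3 it was -1.86 (FDR 0.0807). In the model of all 18 rats its FDR was 0.068. At Year 1 the log2 fold change was -1.15 (FDR 0.228). Without MWCNT rat 2 of Year 1, the highest of its group, it was -2.25 (FDR 0.0461). Leaving that rat out widens the fall by construction, so this value and its FDR are descriptions. At Year 2 the log2 fold change was 0.21 (FDR 0.803), with a negative value without control rat 1 (-0.08), control rat 2 (-0.16) or MWCNT rat 2 (-0.58).

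Muc1 changed more than any other gene of the set in terms of its SE. MUC1 is a mucin anchored in the membrane of airway and alveolar epithelial cells, and its gene (ENSRNOG00000020539) is at chr2:188543137-188547874 on the plus strand. Control rats had 250, 226 and 244 TPM at Year 0.5, 263, 285 and 245 TPM at Year 1, and 142, 143 and 192 TPM at Year 2. MWCNT rats had 680, 763 and 650 TPM, then 691, 623 and 634 TPM, then 642, 516 and 603 TPM. The treatments did not overlap in any rat. The fold was 3.21 at Year 0.5 (log2 1.68, SE 0.08), 2.89 at Year 1 (log2 1.53, SE 0.08) and 4.30 at Year 2 (log2 2.11, SE 0.14), with edgeR FDRs of 5.4e-06, 4.36e-06 and 4.12e-06. Against Muc1, Scgb1a1 was between 91.1 and 194 times as high in control rats and between 15.4 and 22.4 times as high in MWCNT rats.

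In control rats Muc1 was lower at Year 2 than at Year 0.5, by 0.59 on the log2 scale (SE 0.11, edgeR FDR 0.00653). It was the only 1 of the 9 genes with an FDR below 0.05 there. The background was 6.65% of 14843 genes, so that 1 of 9 was near it. Each year had its own rats, so age cannot be told apart from the time of sampling. In MWCNT rats the change of Muc1 was -0.16 (FDR 0.357). The difference of the treatment effect between Year 2 and Year 1 was 0.59 (SE 0.16, unadjusted p = 0.00154, edgeR FDR 0.0783) and that between Year 2 and Year 0.5 was 0.43 (FDR 0.216). DESeq2 gave the former an FDR of 0.0152. Without control rat 3 of Year 2, the edgeR FDR was 0.0202 for the former difference and 0.0497 for the latter. That rat was the highest of its group in Muc1, so leaving it out raises both differences by construction. These 2 FDRs are therefore descriptions.

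The 250 bases before Muc1 (RefSeq, GRCr8, chr2:176933500-176933749, plus strand) are shown for comparison with those of Scgb1a1, with capitals as above.
Muc1: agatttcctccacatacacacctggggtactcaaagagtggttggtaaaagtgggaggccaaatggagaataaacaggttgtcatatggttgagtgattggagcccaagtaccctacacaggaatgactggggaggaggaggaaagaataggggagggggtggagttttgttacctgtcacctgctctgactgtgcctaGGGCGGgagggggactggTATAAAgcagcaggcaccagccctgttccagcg
They held 1 TATA box and 1 GC box and no match to the FOXA or NKX2-1 letters. Foxa3 was the only other gene of the set with both a TATA box and a GC box match.

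Markers of alveolar type 2 cells moved with Muc1. Of the 9 markers, 9, 7 and 8 were higher in MWCNT rats at Years 0.5, 1 and 2 with an FDR below 0.05, against a background of 20.2%, 21.6% and 25.2%, and their summed level was between 28200 and 37400 TPM in control rats and between 52100 and 62000 TPM in MWCNT rats. Their median log2 fold change was 0.86, 0.89 and 1.00, below that of Muc1 at each year. Their part in the rise of Muc1 was not tested. The 5 genes whose deviations from the mean of their own group were most like those of Muc1 over the 18 rats were Naa15 (r = 0.91), Cldn18 (r = 0.91), Xpr1 (r = 0.89), Pdik1l (r = 0.89) and Enpp3 (r = 0.88). For Scgb1a1 they were AABR07071287.1 (r = 0.90), Osgep (r = 0.90), Sftpb (r = 0.90), Tpm2 (r = 0.90) and Iqcd (r = 0.89). These are the highest of 14842 correlations each and share libraries and their scaling, so they are given without a test.

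Muc4 (ENSRNOG00000001777, chr11:71243334-71284939, minus strand), a second membrane mucin, was near the limit of detection. It had between 2 and 13 reads per control rat and between 7 and 34 reads per MWCNT rat. At Year 0.5 control rats had 6, 6 and 5 reads and MWCNT rats 27, 11 and 7 reads, and Muc4 did not pass the filter. At Year 1 the levels were 0.0430, 0.120 and 0.168 TPM in control rats and 0.198, 0.296 and 0.288 TPM in MWCNT rats. At Year 2 they were 0.141, 0.257 and 0.0654 TPM against 0.640, 0.528 and 0.500 TPM. The groups did not overlap at either year. In log2 terms the difference was 1.43 (SE 0.48, edgeR FDR 0.0418) at Year 1 and 2.03 (SE 0.45, FDR 0.00495) at Year 2. At both years Muc4 had 10 or more reads in at most 1 control rat and passed the filter through its MWCNT rats. These values are therefore descriptions. The call at Year 1 was lost in DESeq2 (FDR 0.0758), in limma on log2(TPM + 1) (FDR 0.108), with libraries scaled by total counts (FDR 0.0563), with no filter on low counts (FDR 0.0641) and without control rat 1 (FDR 0.110), control rat 2 (FDR 0.105), MWCNT rat 2 (FDR 0.126) or MWCNT rat 3 (FDR 0.104).

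Muc5b, a secreted gel-forming mucin, did not pass the test at any year. Its gene (ENSRNOG00000019846) is at chr1:214778496-214810720 on the plus strand. Control rats had 0.848, 0.520 and 5.32 TPM at Year 0.5, 0.683, 3.93 and 1.64 TPM at Year 1, and 0.708, 0.682 and 8.04 TPM at Year 2. MWCNT rats had 2.70, 1.20 and 1.82 TPM, then 0.642, 1.76 and 1.97 TPM, then 4.91, 13.9 and 3.26 TPM. One control rat of each year was far above the others, and the highest control rat had 15.5 times the level of the lowest. The log2 fold changes were -0.09, -0.26 and 1.48 with edgeR FDRs of 0.931, 0.735 and 0.18. The sign at Years 0.5 and 1 rested on single rats. At Year 0.5 it was 1.59 (FDR 0.00969) without control rat 3 and 0.17 (FDR 0.897) without MWCNT rat 2. At Year 1 it was 0.55 (FDR 0.427) without control rat 2 and 0.10 (FDR 0.9) without MWCNT rat 1. Without control rat 3 the value at Year 2 was 3.61 (FDR 0.00274). Each control rat left out here was the highest of its group and each MWCNT rat the lowest, so leaving it out raises the value by construction. These values and their FDRs are therefore descriptions.

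The control rats that were highest in Muc5b were also the highest of their year in Scgb3a1 and in heart muscle markers, which the heart muscle sleeve of large pulmonary veins carries in rodents. These were rat 3 of Year 0.5, rat 2 of Year 1 and rat 3 of Year 2, with mean log2(TPM + 1) of 6 heart muscle markers of 6.35, 5.98 and 6.42, where the range over the 9 control rats was 1.86 to 6.42 and that over the 9 MWCNT rats was 1.21 to 4.38. The summed level of these markers was between 72.9 and 670 TPM in control rats and between 15.6 and 202 TPM in MWCNT rats. All 6 were lower in MWCNT rats at Year 0.5 with an FDR below 0.05, against a background of 18.6% of all genes. At Year 1, 1 of 6 tested was lower (background 19.6%) and at Year 2, 1 of 5 (24%), both near the background. The median log2 fold change of the tested heart muscle markers was -1.68, -1.33 and -1.99 at the 3 years. The 5 genes most like Muc5b in their deviations over the 18 rats were Pygm (r = 0.96), Sorbs2 (r = 0.94), Ryr2 (r = 0.93), Scgb3a1 (r = 0.91) and Cyp1b1 (r = 0.90), of which Pygm and Ryr2 are known from striated muscle. Within the 9 control rats, the level of Muc5b was related to that of the heart muscle markers with r = 0.72 (exact permutation p = 0.0215, adjusted 0.0645 over 6 relations) and rho = 0.88 (exact permutation p = 0.00308, adjusted 0.0185). For Scgb3a1 the values were r = 0.73 (exact permutation p = 0.0155, adjusted 0.0645) and rho = 0.80 (exact permutation p = 0.0138, adjusted 0.0415). When the 2 rats with the most extreme marker levels were left out, r was 0.97 for Muc5b and 0.96 for Scgb3a1, and with the mean of each year removed from all 9 rats it was 0.79 and 0.70. In the 9 MWCNT rats, r was 0.27 for Muc5b (exact permutation p = 0.422, adjusted 0.506) and 0.64 for Scgb3a1 (exact permutation p = 0.0832, adjusted 0.166), with -0.18 and -0.12 without the 2 farthest rats and 0.60 and 0.83 with the year means removed. The rho in MWCNT rats was 0.02 for Muc5b (exact permutation p = 0.982) and 0.35 for Scgb3a1 (exact permutation p = 0.359). For Scgb1a1, r was -0.07 in control rats (exact permutation p = 0.872, adjusted 0.872) and 0.40 in MWCNT rats (exact permutation p = 0.289, adjusted 0.433). The permutations exchanged the 9 rats of a treatment across years, so their p-values do not test a relation within a year. These relations were chosen after the values had been seen, and the part of heart muscle in them was not tested.

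**Figure D3:**
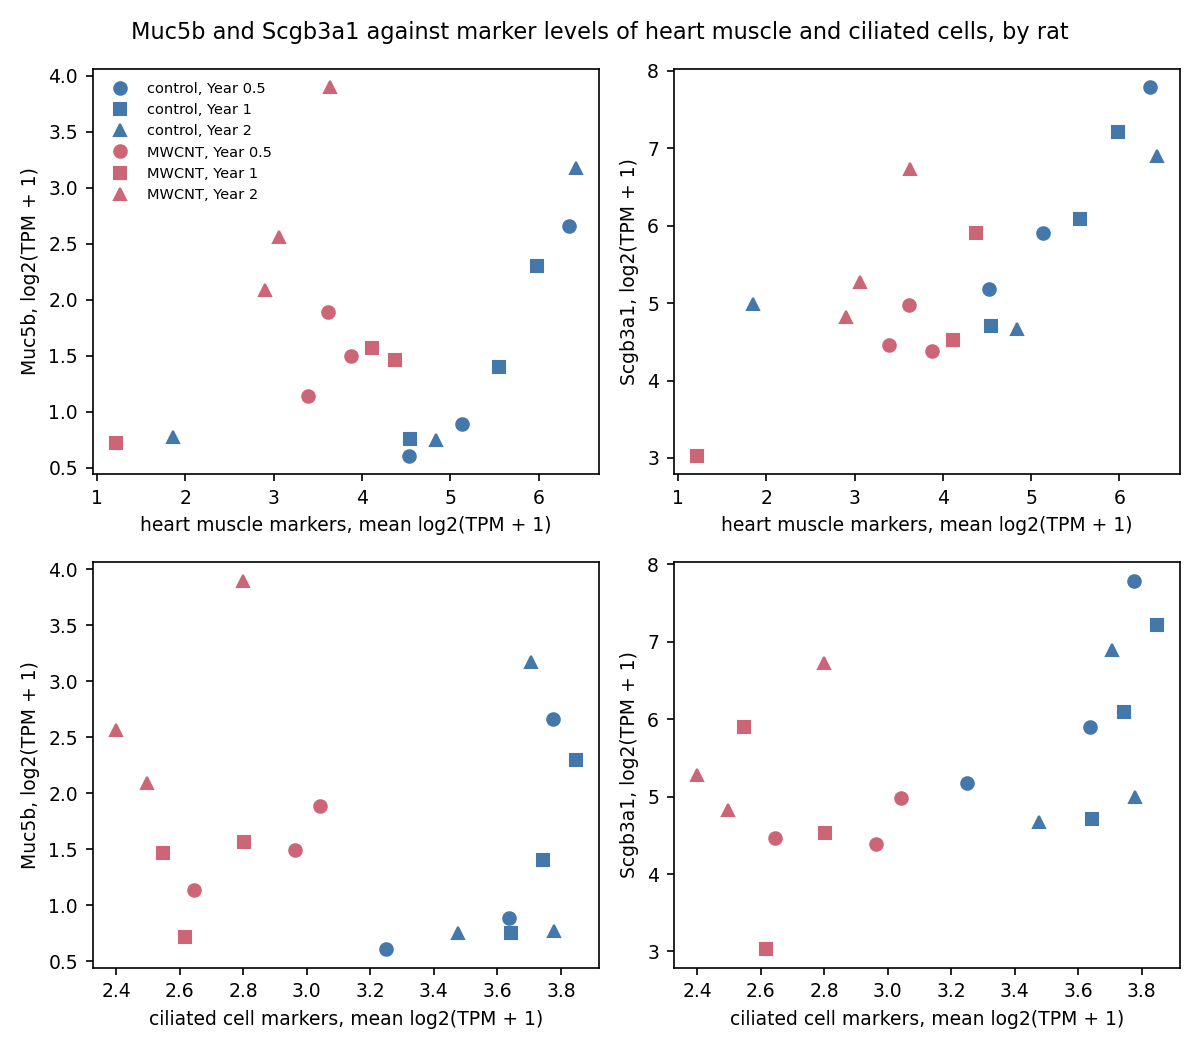
Level of Muc5b (left) and Scgb3a1 (right) as log2(TPM + 1) in each rat, against the mean log2(TPM + 1) of heart muscle markers (top) and of ciliated cell markers (bottom). Control rats are blue and MWCNT rats red, with a symbol for each year. The 3 control rats at 5.98 or more on the heart muscle axis hold the highest control values of both genes, and no MWCNT rat is above 4.38 on that axis.

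The average over 3 years was therefore also computed without the rat of each group that was highest in heart muscle markers. With all 18 rats, 4 of the 9 genes were higher and 3 lower with an FDR below 0.05, against a background of 32.7% and 33.4% of 14843 genes. The higher genes were Muc1 (log2 1.77), Muc4 (1.59), Foxa3 (1.51) and Spdef (0.93), and the lower genes were Scgb1a1 (-0.86), Agr2 (-0.69) and Scgb3a2 (-0.43). Muc4 had between 2 and 13 reads per control rat and passed the filter through its MWCNT rats, so its place in this count is a description. Muc5b was at 0.37 (SE 0.53, edgeR FDR 0.55) and Scgb3a1 at -0.98 (SE 0.47, FDR 0.0746). Scgb3a1 passed with libraries scaled by total counts (FDR 0.0429). Its FDR was also below 0.05 without control rat 2 of Year 0.5 (FDR 0.0441) or control rat 1 of Year 1 (FDR 0.0429). The same held without MWCNT rat 2 of Year 1 (FDR 0.0216) or MWCNT rat 2 of Year 2 (FDR 0.0329). Each of these control rats was the lowest of its group and each MWCNT rat the highest. Leaving such a rat out widens the fall of Scgb3a1 by construction, so the FDRs without these rats are descriptions. Without the 6 rats highest in heart muscle markers, the log2 value was 1.58 for Muc5b, -0.58 for Scgb3a1 and -0.40 for Agr2. With only the 3 control rats left out, it was 1.91 for Muc5b, -0.0011 for Scgb3a1, -0.32 for Agr2 and -0.32 for Scgb3a2. Those 3 control rats were also the highest control rats of their year in Muc5b, Scgb3a1, Agr2, Spdef and Foxa3, so leaving them out raises the values of these genes by construction. The values are therefore descriptions, given with no test.

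The transcription factor Spdef (ENSRNOG00000000491, chr20:7292824-7307284, minus strand), which drives mucous cell differentiation, was higher in MWCNT rats at every year. Control rats had 4.43, 4.26 and 4.98 TPM at Year 0.5, 5.80, 7.56 and 6.62 TPM at Year 1, and 6.36, 4.97 and 7.03 TPM at Year 2. MWCNT rats had 8.31, 8.99 and 9.14 TPM, then 8.93, 8.52 and 9.03 TPM, then 11.6, 11.5 and 10 TPM. All 9 MWCNT rats were above all 9 control rats. Its log2 fold change was 1.10 at Year 0.5 and 1.07 at Year 2, when Spdef was a DEG, and 0.64 at Year 1 with an edgeR FDR of 0.00719. The FDR was 0.000812 at Year 0.5 and 0.000957 at Year 2. The fold came under the DEG limit at Year 2 without control rat 2 (0.93), and with libraries scaled by total counts at both years (0.99 and 0.90). The smaller value at Year 1 was not separated from that at Year 0.5 in the model of all 18 rats after adjustment (difference -0.46, SE 0.20, unadjusted p = 0.0342, FDR 0.561).

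The window before Spdef (RefSeq, GRCr8, chr20:5787686-5787935, minus strand) is shown because it shares the FOXA and NKX2-1 letters with that of Scgb1a1, although the genes moved in opposite directions.
Spdef: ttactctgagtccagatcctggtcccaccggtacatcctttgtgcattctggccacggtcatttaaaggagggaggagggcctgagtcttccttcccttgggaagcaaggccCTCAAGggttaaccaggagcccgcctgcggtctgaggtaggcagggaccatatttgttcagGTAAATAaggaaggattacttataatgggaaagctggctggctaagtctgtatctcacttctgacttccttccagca
It held 1 FOXA and 1 NKX2-1 match, and no TATA box. The transcript of Nkx2-1 itself was named after its values had been seen. It was higher in MWCNT rats by 0.49, 0.56 and 0.47 on the log2 scale at the 3 years. Its groups overlapped at Year 1. Of the FOXA factors, Foxa1 and Foxa2 were also named after their values had been seen. In TPM, all 3 MWCNT rats were below all 3 control rats for Foxa1 at each year and for Foxa2 at Years 1 and 2. Over all genes tested, 57.7%, 61.7% and 63.8% had no overlap in either direction at the 3 years. The part of these factors in the change of Spdef was not tested.

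Foxa3 (ENSRNOG00000014256, chr1:79920752-79930263, minus strand) encodes a forkhead factor that promotes mucous cell genes. It had between 2 and 14 reads per control rat and between 12 and 46 per MWCNT rat. At Year 0.5 it was at 0.289, 0.277 and 0.845 TPM in control rats and 1.32, 2.01 and 1.01 TPM in MWCNT rats. At Year 1 the groups overlapped, with 0.625, 0.903 and 0.651 TPM against 0.700, 1.41 and 1.28 TPM. At Year 2 they were apart, with 0.326, 0.128 and 0.422 TPM against 0.973, 0.907 and 0.923 TPM. The log2 fold change was 1.78 (SE 0.49, edgeR FDR 0.0199) at Year 0.5, 0.88 (SE 0.39, FDR 0.101) at Year 1 and 1.88 (SE 0.48, FDR 0.0102) at Year 2. At Years 0.5 and 2, Foxa3 had 10 or more reads in at most 1 control rat and passed the filter through its MWCNT rats. The values at those years are therefore descriptions. Leaving out control rat 1, control rat 2 or MWCNT rat 2 raised the FDR at Year 0.5 to 0.0852, 0.0664 and 0.0908, and leaving out MWCNT rat 1 lowered that at Year 1 to 0.0449. MWCNT rat 1 of Year 1 was the lowest of its group, so leaving it out raises the log2 fold change by construction.

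Agr2 (ENSRNOG00000005023, chr6:55465782-55487714, plus strand), the mucin-folding enzyme, was lower in MWCNT rats on average over the years and did not pass the test at any single year. It was at 7.17, 4.62 and 16.6 TPM in control rats and 6.90, 4.03 and 3.87 TPM in MWCNT rats at Year 0.5, and at 8.98, 11.3 and 7.67 TPM against 4.43, 5.90 and 6.66 TPM at Year 1. At Year 2 it was at 8.18, 5.28 and 11.8 TPM against 3.49, 5.97 and 3.08 TPM. The groups were apart at Year 1 only. The log2 fold change was -0.80, -0.47 and -0.79, with edgeR FDRs of 0.184, 0.107 and 0.0843. At Year 2 it was -1.05 (FDR 0.0298) without control rat 2, the lowest of its group. Without MWCNT rat 2, the highest of its group, it was -1.13 (FDR 0.0348). Leaving out either rat widens the difference by construction, so these values and their FDRs are descriptions. The average over the years, -0.69 with all rats, was smaller in size without the rats highest in heart muscle markers. It was -0.40 without 1 such rat per group and -0.32 without the 3 control rats, which were the highest in Agr2 of their year.

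Whether the effect of MWNT-7 differed between years was tested for each gene in the model of all 18 rats. With edgeR and all 18 rats, 0 of the 9 genes had an FDR below 0.05 for any of the 3 pairs of years. At an unadjusted p below 0.05 there were 1 gene for Year 1 against Year 0.5 (background 8.49%), 1 for Year 2 against Year 0.5 (13.8%) and 2 for Year 2 against Year 1 (16.5%), and DESeq2 gave 0, 0 and 1 at an FDR below 0.05. In all genes, the FDR was below 0.05 for 0%, 1.31% and 0.478% of 14843 genes. The estimates for Scgb3a1 and Muc5b between Year 2 and Year 0.5 were 2.20 (SE 1.15) and 1.57 (SE 1.28) on the log2 scale, so that large differences in them would not have been detected. From Year 0.5 to Year 2 within MWCNT rats, 0 of the 9 genes passed (background 13.5%), with 3 at an unadjusted p below 0.05 (background 27.7%). These were Spdef at 0.41 (unadjusted p = 0.00772, FDR 0.0547), Muc4 at 1.20 (unadjusted p = 0.0243) and Muc5b at 2.05 (unadjusted p = 0.0365). DESeq2 gave these FDRs of 0.0578, 0.12 and 0.181. Without MWCNT rat 1 of Year 0.5, Muc4 was at 2.06 (edgeR FDR 0.0186). That rat was the highest of its group in Muc4, so leaving it out raises the value by construction. The value and its FDR are therefore descriptions. In control rats Spdef was at 0.43 over the same time (unadjusted p = 0.00967, FDR 0.0861).

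Markers of ciliated cells, which line the airways beside club cells, were lower in MWCNT rats. Of the 13 markers in the tables, 11 were tested at each year, and 7, 11 and 11 of them were lower with an FDR below 0.05 at Years 0.5, 1 and 2, against a background of 18.6%, 19.6% and 24%. Their median log2 fold change was -0.74, -1.12 and -1.23, where that of all genes was -0.02, 0.00 and -0.01. Dnah5, a dynein heavy chain of motile cilia, changed by -0.34, -1.67 and -1.10, and Dnah9 by -0.74, -1.57 and -1.43. None of the 13 was at 0 in all rats, and their summed level was between 1200 and 1480 TPM in control rats and between 252 and 581 TPM in MWCNT rats. Most of that sum was Tppp3, named after its values had been seen, with group means between 1130 and 1170 TPM in control rats and between 265 and 447 TPM in MWCNT rats. As a difference from the mean log2(TPM + 1) of the ciliated markers, Scgb1a1 was at 11.1 ± 0.13 (SD, n = 3) in control and 10.8 ± 0.084 in MWCNT rats at Year 0.5, at 11.03 ± 0.13 and 10.97 ± 0.19 at Year 1, and at 10.7 ± 0.28 and 10.8 ± 0.16 at Year 2. At Year 0.5, 3 of 3 MWCNT rats were below all control rats on that scale, and at the later years the groups overlapped. Scgb3a2 was higher on that scale in MWCNT than in control rats by 0.012, 0.35 and 0.64 at the 3 years, with 1, 2 and 3 of 3 MWCNT rats above all control rats. Cyp2f4, a cytochrome P450 of club cells, differed by -0.74, -0.72 and -0.45, with 2, 3 and 2 of 3 MWCNT rats below all control rats. The part of the ciliated markers' fall in that of the secretoglobins was not tested.

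Across rats of 1 treatment, the relation of secretoglobins and Muc5b to the ciliated markers was not established. The permutations exchanged the 9 rats of a treatment across years, so their p-values do not test the relation within a year. For Scgb1a1, r was 0.58 in the 9 control rats (exact permutation p = 0.0938, adjusted 0.165 over 6 relations) and 0.70 in the 9 MWCNT rats (exact permutation p = 0.0357, adjusted 0.165), with rho of 0.55 (exact permutation p = 0.133, adjusted 0.199) and 0.67 (exact permutation p = 0.0589, adjusted 0.199). Without the 2 farthest rats these fell to r = 0.23 and 0.35, and with the year means removed they were 0.77 and 0.58. For Scgb3a1, r was 0.57 in control rats (exact permutation p = 0.107, adjusted 0.165) and -0.02 in MWCNT rats (exact permutation p = 0.96, adjusted 0.97), with rho of 0.57 (exact permutation p = 0.121) and -0.22 (exact permutation p = 0.581), and 0.72 and 0.31 with the year means removed. For Muc5b, r was 0.55 (exact permutation p = 0.11, adjusted 0.165) and 0.02 (exact permutation p = 0.97, adjusted 0.97), with rho of 0.65 (exact permutation p = 0.0666) and -0.08 (exact permutation p = 0.843), and 0.59 and 0.74 with the year means removed. Without the 2 farthest rats, r was 0.52 and 0.11 for Scgb3a1 and 0.41 and 0.15 for Muc5b.

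Among other club cell genes, Cyp4b1 and Cyp2f4 were lower and Cldn10 and Pigr higher in MWCNT rats at all 3 years. Of the 20 genes listed, 15, 15 and 16 were tested at Years 0.5, 1 and 2, and 3, 3 and 4 were higher and 5, 6 and 5 lower with an FDR below 0.05, with medians of -0.44, -0.41 and 0.16. The background was 20.2%, 21.6% and 25.2% of all genes higher and 18.6%, 19.6% and 24% lower, so that the share of the list that was higher was near that of all genes. Cyp4b1 and Cyp2f4, cytochromes P450 of club cells, were lower DEGs at all 3 years. Cyp2f4 fell from a mean of 89.9 to 32.1 TPM at Year 0.5, from 108 to 31.4 TPM at Year 1 and from 69.8 to 23.2 TPM at Year 2. Cyp4b1 fell from 801 to 300 TPM, from 796 to 304 TPM and from 676 to 163 TPM. Their log2 fold changes were between -1.54 and -1.35 for Cyp2f4 and between -1.83 and -1.16 for Cyp4b1. Cldn10, a tight junction claudin, and Pigr, which carries polymeric immunoglobulin into the airway, were higher DEGs at all 3 years, Cldn10 by 1.33, 1.34 and 1.41 and Pigr by 1.25, 1.07 and 1.54 on the log2 scale. Pigr is also in the list of mucous cell secretory genes, and at Year 1 it came under the fold limit with libraries scaled by total counts (0.93) or limma on log2(TPM + 1) (0.83).

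Among secretory genes of mucous cells, Slc26a4, Cftr and Pigr were higher DEGs at all 3 years. Of the 22 listed, 15 were tested at each year, with 9, 9 and 8 higher and 0, 2 and 1 lower at an FDR below 0.05 and medians of 0.65, 0.52 and 0.70, against the same background of 20.2%, 21.6% and 25.2% higher and 18.6%, 19.6% and 24% lower. Of the 7 mucous (goblet) cell markers in the tables, 4 of which are genes of the set described here, 6 were tested, with 2, 1 and 3 higher and 0 lower at each year. The 2 at Year 0.5 were Spdef and Foxa3, and the 1 at Year 1 was Spdef. Spdef and Foxa3 were also among the 3 at Year 2, so these counts mostly repeat genes described above. The summed level of the 7 markers overlapped, with 12.3 to 39.1 TPM in control rats and 17.2 to 36.5 TPM in MWCNT rats. Macrophage markers moved at the same time, with 8 of 8 higher at each year and a summed level of 586 to 788 TPM in control rats and 2950 to 5690 TPM in MWCNT rats, and their part in these changes was not tested. The largest change of the list was that of Slc26a4, the anion exchanger pendrin of airway epithelium. Its mean level was 2.54, 3.14 and 2.85 TPM in control rats and 112, 128 and 140 TPM in MWCNT rats, a fold of 49.2, 47.5 and 57.8 (log2 5.62, 5.57 and 5.85) with edgeR FDRs of 6.95e-06, 2.09e-07 and 1.37e-06. Cftr, the chloride channel of airway secretion, rose 4.01-fold, 2.78-fold and 5.22-fold, with a log2 value at Year 1 just under the limit in limma on log2(TPM + 1) (0.996). The trefoil factor genes Tff1 and Tff2, which mark mucous cells of other organs, had 0 reads in all 18 rats. Tff3 had at most 3 reads in any rat, and these trefoil genes were named after their values had been seen.

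**Figure D4:**
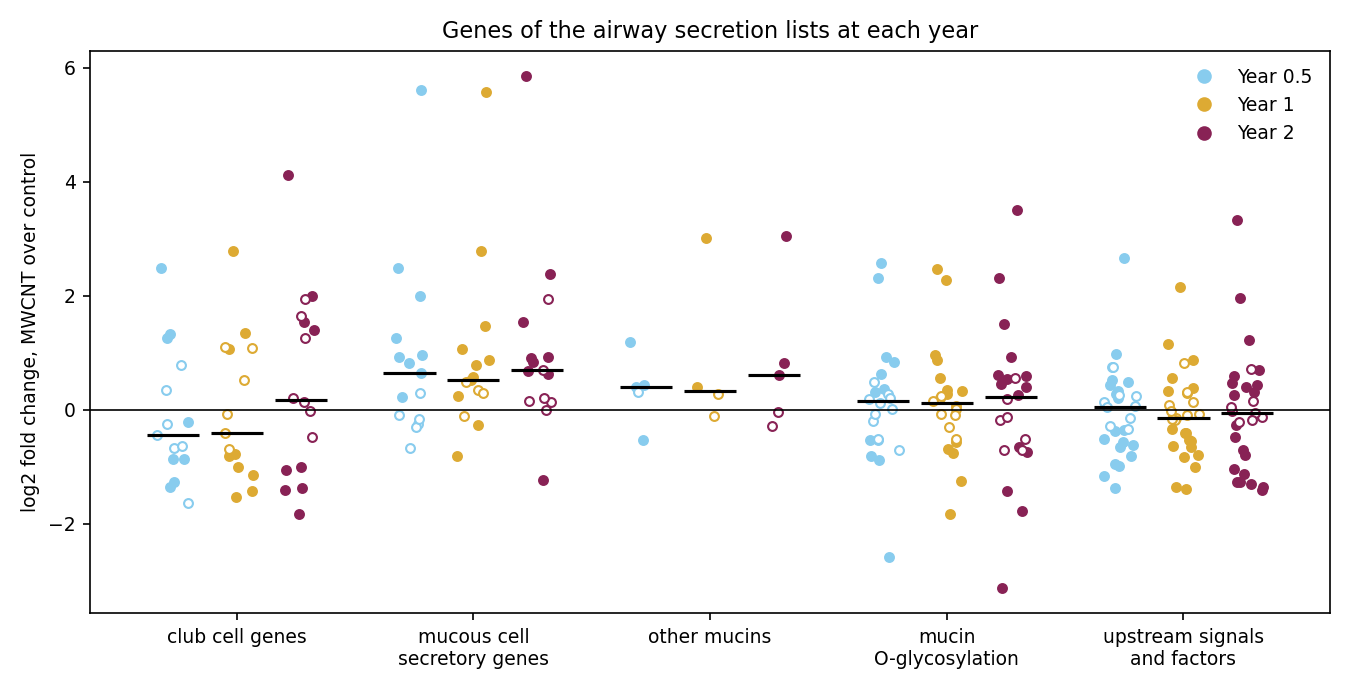
Log2 fold change of MWCNT over control rats (vertical axis) for each tested gene of 5 lists at each year. Filled points have an FDR below 0.05 by edgeR's quasi-likelihood test, and black lines are medians. Slc26a4 is the point above 5.5 among mucous cell secretory genes at each year, and the club cell genes spread to both sides of 0.

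Of the 16 other mucins listed, 7 were in the tables and 5, 4 and 5 were tested, with 3, 2 and 3 higher and 1, 0 and 0 lower at an FDR below 0.05, against 20.2%, 21.6% and 25.2% of all genes higher and 18.6%, 19.6% and 24% lower. Muc6, another gel-forming mucin, named after its values had been seen, had at most 21 reads in any rat and was tested at Years 0.5 and 2, with log2 fold changes of 0.31 (FDR 0.632) and -0.03 (FDR 0.965) by edgeR. Muc20, a membrane mucin whose gene lies beside Muc4 at chr11:71222600-71236223, was a higher DEG at all 3 years. Its mean was 1.44, 1.52 and 1.82 TPM in control rats and 2.99, 10.6 and 12.9 TPM in MWCNT rats, with log2 fold changes of 1.18 (SE 0.32), 3.02 (SE 0.29) and 3.05 (SE 0.32). The call at Year 0.5 was lost without control rat 2 (0.92) or MWCNT rat 1 (FDR 0.0512) and in limma on log2(TPM + 1) (0.73). From Year 0.5 to Year 2, Muc20 rose by 2.20 on the log2 scale in MWCNT rats (edgeR FDR 0.000183) and changed by 0.32 in control rats (FDR 0.651), and the difference between these, 1.88 (SE 0.48), had an FDR of 0.0657.

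Among enzymes that attach sugars to mucins, Galnt5 and B3gnt3 were higher and Galnt14 lower as DEGs at all 3 years. Of the 30 listed, 22 were tested at each year, with 7, 8 and 10 higher and 5, 5 and 5 lower at an FDR below 0.05 and medians of 0.15, 0.11 and 0.22. Over all genes tested, 20.2%, 21.6% and 25.2% were higher and 18.6%, 19.6% and 24% lower, so that the share of enzymes that were lower was near the background. Galnt5, which starts O-glycans, rose by 2.58, 2.27 and 3.51 on the log2 scale, and B3gnt3, which extends them, by 2.31, 2.47 and 2.32. Galnt14, another initiating enzyme, changed by -2.59, -1.83 and -3.12.

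The list of signals and transcription factors upstream of airway mucus held 35 genes, of which 29 were tested. Of these, 9, 7 and 10 were higher and 11, 12 and 11 lower at an FDR below 0.05 at the 3 years, with medians of 0.04, -0.14 and -0.06. The background was 20.2%, 21.6% and 25.2% higher and 18.6%, 19.6% and 24% lower, and the share higher at Year 1 was near it. Areg, a ligand of the epidermal growth factor receptor, was a higher DEG at each year, with means of 3.85, 3.33 and 2.30 TPM in control rats and 21.9, 12.5 and 19.8 TPM in MWCNT rats. Its log2 fold change was 2.66, 2.15 and 3.33. Alox15, a lipoxygenase induced by interleukin 13, was lower, with means of 22.8, 24.2 and 25.4 TPM against 8, 7.83 and 9.13 TPM. Il13 had 0 reads in all 18 rats and Il4 had 1 read in a single rat, so that these pieces held too little of either transcript to compare, and both were named after their values had been seen. Stat6, which carries their signal and was also named after its values had been seen, had log2 fold changes of 0.04, -0.03 and 0.04 with edgeR FDRs of 0.594, 0.78 and 0.639.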

How the data were processed

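RNA-seq of lung accessory lobe pieces from 18 rats was deposited as 3 tables, 1 for each year. The authors made the counts per gene with CLC Genomics Workbench, and the deposited values are total reads per gene without normalization. The authors also deposited TPM, computed by the same program, which corrects for gene length and library size. The processing notes name Rnor_6.0 and rn6. A further 36 columns of other per-sample values (RPKM and CPM) were not used, nor were the columns of the authors' comparisons (fold changes and p-values). Groups came from the labels, and each library was 1 rat.

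Counts were filtered with filterByExpr (minimum count 10, minimum total 15), scaled by TMM and compared in edgeR 4.0.16 (R 4.3.3, quasi-likelihood F-test), within each year on 6 rats, and on 18 rats for averages over years, differences between years and time within a treatment. The p-values were adjusted by the Benjamini-Hochberg method over all genes tested. SEs were derived from the F statistic. Reads from genes that overlap or share sequence cannot be told apart, and intervals of counting error were not used because replicates give the spread. Alternatives were DESeq2 1.42.0, limma 3.58.1 on log2(TPM + 1), DESeq2's size factors within edgeR, library size only, no filter, all rats in 1 model, the replicate number as a block, an FDR limit alone, a prior count of 0.25, a pseudocount of 0.1 and leaving out each rat. Correlations across rats used exact permutation tests, two-sided (Python 3.11.15, numpy 2.4.6, pandas 2.3.3, scipy 1.17.1), on log2(TPM + 1). Nearest genes were ranked by the correlation of log2 CPM (prior count 2) after subtracting group means. Counts were also simulated from Year 1 with 200 genes changed, as many up as down, and 14200 genes were tested. The test recovered 92 of 99 genes changed by 1.5 and 99 of 99 changed by 2 on the log2 scale, with 17 false calls. Far fewer genes changed there than the 5913 that passed an FDR of 0.05 alone at Year 1. It was therefore no check of the scaling where many genes change, nor of any single gene.

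The members and lists were chosen with earlier results of these data known. All members were named, and from each list at most the 4 genes with the greatest mean absolute log2 fold change among those that were DEGs in the same direction at all 3 years. Of the ciliated cell markers, the first 2 of the list that the tables hold were named (Dnah5 and Dnah9). The fits without rats high in heart muscle markers, the relations to these markers and the nearest genes of Muc5b (in place of Muc5ac) were added after seeing the data. Promoter windows of 250 bases came from RefSeq (GRCr8), whose coordinates differ from those of the tables.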

Additional observations from a re-analysis of the deposited data

How the results depend on the processing

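The counts behind these values limit Muc4 and Foxa3, which had fewer than 50 reads in any rat, and 3 rats per group limit Muc5b and Scgb3a1. Over the genes named and all alternatives, 1899 values kept direction and side of the threshold, 33 lost and 22 gained their call and 60 changed sign. The causes were not tested.

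With an FDR below 0.05 alone, 5549, 5913 and 7067 genes passed at Years 0.5, 1 and 2 in place of 1303, 1467 and 2355, and 2, 2 and 1 of the 9 genes were lower. At Year 0.5, 0 were lower in the model of 18 rats and 1 was higher with limma on log2(TPM + 1). At Year 1, 1 was higher with DESeq2, library size only, no filter and limma, and 1 was lower with library size only and limma. At Year 2, 1 was higher with limma. In the average over 3 years, 1 was lower without the 3 control rats highest in heart muscle markers, which were also the highest of their year in Agr2, so that this count is a description. For the differences between years, DESeq2 gave 466 genes (194 in edgeR) for Years 2 and 0.5, 6 (0) for Years 1 and 0.5 and 489 (71) for Years 2 and 1, with 1 of the 9 genes higher in the last, and for Years 2 and 1 library size only gave 46 and no filter 44. The sign changed for Agr2 between Years 2 and 0.5, at -7e-04 with DESeq2, -0.053 with library size only and -0.0095 with no filter, for Muc5b at Year 0.5 with limma (0.12), and for the r of Scgb3a1 with ciliated markers in MWCNT rats (0.11 without the 2 farthest rats).

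Same-numbered rats did not deviate together (mean r 0.0069, range -0.15 to 0.11, against a mean of -0.0032 for other pairs), so the replicate numbers gave no pairing. With the replicate number as a block, Muc5b was at 0.45 at Year 0.5, and 1 of the 9 genes was lower at Year 1, Scgb3a1 at -1.29 (FDR 0.000371).

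With each rat left out in turn, between 0 and 2 of the genes were lower at Year 0.5, between 1 and 3 higher and 0 and 2 lower at Year 1, and between 0 and 1 lower at Year 2. With an FDR below 0.05, between 52 and 348 genes differed between Years 2 and 0.5, 0 and 1 between Years 1 and 0.5, and 1 and 416 between Years 2 and 1, with 0 to 1 of the 9 higher in the first and last. As DEGs, 31 to 154 genes changed within control rats and 223 to 391 within MWCNT rats, with 0 to 1 of the 9 higher. The log2 value at Year 0.5 ran for Muc5b from -0.55 to 1.59. The log2 value at Year 1 ran for Muc5b from -0.66 to 0.55. The log2 value at Year 2 ran for Scgb3a1 from -0.58 to 1.23. The log2 value for the difference between Years 1 and 0.5 ran for Scgb1a1 from -0.16 to 0.11, for Scgb3a1 from -0.31 to 1.60, for Scgb3a2 from -0.16 to 0.27, for Muc4 from -0.23 to 0.97, for Muc5b from -1.85 to 0.63 and for Agr2 from -0.35 to 0.64. The log2 value for that between Years 2 and 0.5 ran for Scgb1a1 from -0.052 to 0.35, for Muc5b from -0.10 to 3.70, for Spdef from -0.16 to 0.070, for Foxa3 from -0.60 to 0.45 and for Agr2 from -0.65 to 0.34. The log2 value for that between Years 2 and 1 ran for Scgb1a1 from -0.0037 to 0.40. The log2 value for Year 2 against Year 0.5 within control rats ran for Scgb3a1 from -1.89 to 0.28, for Scgb3a2 from -0.34 to 0.080, for Muc4 from -0.073 to 0.84, for Muc5b from -1.65 to 2.15, for Foxa3 from -0.998 to 0.032 and for Agr2 from -0.48 to 0.51. The log2 value for Year 2 against Year 0.5 within MWCNT rats ran for Agr2 from -0.49 to 0.17.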
